A study of Myzus persicae with 8 samples.

Results

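Cathepsin B contigs were examined in the green peach aphid, Myzus persicae. The 6 contigs (assembled transcript sequences) were contig256, contig254, contig3002, contig3004, contig6594 and contig6891. They were selected on the study's lists of contigs up-regulated by insecticide in genotype S, in genotype SR or in both, where they are described as cathepsin B or cathepsin B-N. They were 6 of the 10489 contigs on the array and had 10 of its 14628 probes, since 4 contigs had 2 probes (a and b) and contigs 6594 and 6891 had 1 (a). The ratios in genotypes S and SR thus chose the contigs and are given as a description with no test, whereas the ratios in genotype MR did not enter the choice.

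The array experiment asked how aphids that differ in resistance respond to pirimicarb, a carbamate that inhibits acetylcholinesterase. Aphids of 7 days were sprayed with 1 ml of pirimicarb at 20 ppm in acetone plus water, or with the control spray, and the aphids alive after 24 hours were frozen. The study's methods call the control water, as is done here, whereas the sample labels call it acetone plus water, so it is not settled whether both sprays held acetone. Each two-colour array compared 2 pools of 1 genotype, with RNA from about 40 whole aphids treated with insecticide in one channel and from about 40 treated with water in the other. Genotype MR (multiple resistant) carried the kdr mutation of the sodium channel and the MACE mutation of acetylcholinesterase, both heterozygous. Genotype SR (simple resistant) carried heterozygous kdr alone. Genotype S (sensitive) carried neither. Each genotype was a single clonal lineage, so a difference between genotypes is one between these 3 lineages. There were 3 replicates (A, B and C) of S, 2 of SR and 2 of MR. A further MR array is described as a technical repeat of replicate A, although by its title the water pool was that of a replicate C, and it was averaged with the first array of replicate A. S replicate A was used as S by its title and description, although its genotype field reads SR. Insecticide-treated RNA was in Cy5 in replicate A of every genotype and in S replicate C, and in Cy3 in replicate B of every genotype.

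Cathepsin B is a papain-type cysteine protease. In most animals it works in lysosomes, where it cuts proteins taken up by the cell. In aphids, which feed on phloem sap, cathepsin B genes have multiplied, and cathepsins of this kind are known from the gut, where they can act on dietary protein. RNA of whole aphids was measured here, so fewer gut cells and less transcript per gut cell cannot be told apart.

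Of the 6 contigs, 256 is the one whose transcript the study also assayed by PCR. Both primers are shown because they are the sequences by which this transcript can be followed outside the array. They are printed 5′ to 3′, each of 22 bases with 11 G or C.
CathBN_A_For: ggaagcgcaacagtgggtttta
CathBN_A_Rev: acgctgacgaagatcacagaca
By the study's best database matches, contigs 256 and 254 share 1 cathepsin B-N entry, contigs 3002, 3004 and 6891 share a second entry, and contig 6594 matches another. Whether contigs that share an entry are separate genes, alleles or fragments of 1 transcript was not tested, so the 6 contigs are not 6 independent measurements.

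All 80 spots of the 10 probes on the 8 arrays were well above background in the insecticide-treated channel, and 75 were in the water-treated channel. The other 5 were probes 256a, 256b, 3002a, 3002b and 6891a in S replicate A. No spot of these probes was marked as an outlier. Over all probes, the median signal was 42.0 to 117 times the background in Cy3 and 29.1 to 53.4 times in Cy5. The number of arrays limits the precision of every value below.

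In genotype MR, all 6 cathepsin B contigs had less signal after pirimicarb than after water in both replicates, while in genotypes SR and S all 6 had more signal after pirimicarb in every replicate. The values are log2 ratios of insecticide-treated over water-treated aphids, normalized within each array, so that values above 0 mean more signal after pirimicarb. The median of the 6 contigs was -3.48 in replicate A and -2.15 in replicate B of MR. It was 1.19 and 0.62 in SR replicates A and B, and 1.11, 1.47 and 0.46 in S replicates A, B and C. The median over all contigs lay between -0.03 and 0.01 on each of these replicates.

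**Figure D1:**
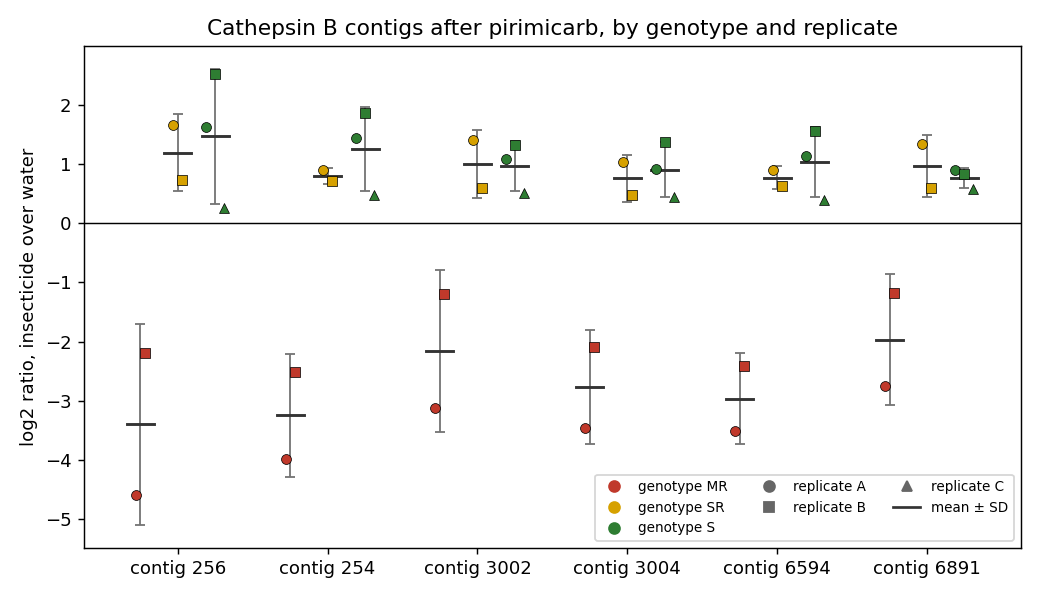
Log2 ratio of insecticide-treated over water-treated aphids (y axis) for each cathepsin B contig (x axis) in genotypes MR, SR and S, with points for replicates and bars for the mean ± SD (n = 2 for MR and SR, n = 3 for S). Every MR point lies below 0, between -4.60 and -1.19, and every SR and S point lies above 0.

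Contig 256, a cathepsin B-N, had the widest response. Its log2 ratio was -4.60 and -2.20 in MR replicates A and B, against 1.65 and 0.74 in SR and 1.62, 2.52 and 0.25 in S. The MR mean was -3.40 ± 1.70 (SD, n = 2), a signal 10.5-fold lower after pirimicarb than after water. The mean was 1.19 ± 0.65 in SR (SD, n = 2), 2.29-fold higher after pirimicarb, and 1.46 ± 1.14 in S (SD, n = 3), 2.76-fold higher. In S the SD was close to the size of the mean, and replicate C was the lowest. In the scanner's intensities before normalization, probe 256b in MR replicate A read 626 in the insecticide-treated channel and 26470 in the water-treated channel, over a background of 63 and 60. On MR replicate B it read 5650 after insecticide and 13456 after water. The water-treated channel of this probe was thus the brighter with either dye. Contigs 3002 and 6891 were nearly even before normalization on MR replicate B. There, probe 3002a read 6627 after insecticide and 7577 after water, and probe 6891a read 5310 and 5604. Their log2 ratios on that replicate, -1.24 and -1.19, thus rest largely on the normalization within the array.

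Contig 254 has the same best match as contig 256. Its log2 ratio was -3.98 and -2.51 in MR replicates A and B, against 0.90 and 0.71 in SR and 1.43, 1.86 and 0.47 in S. The means were -3.24 ± 1.04 in MR, 0.80 ± 0.13 in SR and 1.25 ± 0.71 in S (SD, n = 2, 2 and 3). Replicate B of MR was lower in contig 254 than in any other member, although contig 256 was lower in replicate A.

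Contig 6594, the cathepsin B-N matched to another entry, followed contig 254. Its log2 ratio was -3.51 and -2.42 in MR replicates A and B, against 0.90 and 0.63 in SR and 1.14, 1.56 and 0.40 in S. Its means were -2.96 ± 0.77 in MR, 0.77 ± 0.19 in SR and 1.03 ± 0.59 in S (SD, n = 2, 2 and 3).

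Contigs 3002, 3004 and 6891 share the cathepsin B entry, but not the size of the response. Contig 3004 had log2 ratios of -3.45 and -2.09 in MR replicates A and B, against 1.03 and 0.48 in SR and 0.91, 1.37 and 0.44 in S. Contig 3002 had -3.12 and -1.19 in MR, against 1.41 and 0.60 in SR and 1.08, 1.31 and 0.51 in S. Contig 6891 had -2.75 and -1.19 in MR, against 1.34 and 0.60 in SR and 0.90, 0.83 and 0.58 in S. Contigs 3002 and 6891 were thus nearer to 0 than the other 4 in both MR replicates, with means of -2.16 ± 1.36 and -1.97 ± 1.10 (SD, n = 2), against -2.77 ± 0.96 for contig 3004. These gaps between the means of 3 contigs were smaller than the SD of each. That SD is between replicates, which the contigs share, and contig 3004 was the lowest of the 3 in both MR replicates.

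The study's limits for its lists were a log2 ratio of 1 and an unadjusted P of 0.05, although its listed ratio for contig 6891 in SR lay just under 1. With the same thresholds here, a contig counting when at least 1 probe passes, 5 of the 6 contigs were up-regulated in S, where 1.89% of all contigs were, and 2 (256 and 3002) in SR, where 0.172% were. These counts follow from the choice. Without S replicate B the count in S was 0, while 377 contigs of the array passed. Without SR replicate A the 6 contigs lay between 0.48 and 0.74 in the SR replicate that was left. Just inside the limit in S were probe 6594a at 1.03 and probe 3002b at 1.08, and just outside were probe 3002a at 0.85 and probe 6891a at 0.77. In SR, probe 3002b was just inside at 1.05 and probe 6891a just outside at 0.97.

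In MR, which did not enter the choice, all 6 contigs and all 10 probes passed the same thresholds downward, where 0.582% of all contigs did (61 of 10489). The probe means lay between -3.50 (256b) and -1.97 (6891a). By limma, the 95% interval was -5.00 to -2.00 for probe 256b, -4.49 to -2.09 for probe 254b, -4.09 to -1.84 for probe 6594a and -3.20 to -0.74 for probe 6891a. Limma draws the spread of a probe toward that of all probes, so these intervals are not set by the 2 MR replicates alone. After Benjamini-Hochberg adjustment over the 14628 probes, the limma p was 0.511 for the probes of contigs 256, 254, 3004 and 6594 and 1.00 for those of contigs 3002 and 6891. No probe of the array passed an adjusted limma p of 0.05 in MR, where the lowest was 0.420 and 93 had an unadjusted P under 0.05. The low ratios in MR therefore pass on fold and unadjusted P only. Of all contigs, 33 had a mean MR ratio at or below that of contig 6891, the member nearest to 0, and 6 of these were the members themselves.

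The MR replicates went against each other over the whole array, and the cathepsin B contigs did not follow this. The log2 ratios of all probes correlated at r = -0.55 between MR replicate B and the first array of replicate A, and the first array of MR replicate A correlated at -0.47 with S replicate A, which has the same dye orientation, and at -0.46 with S replicate B, which has the other. MR replicate B correlated at 0.35 with S replicate A and 0.32 with S replicate B. With S replicate C, the first array of MR replicate A correlated at -0.006 and MR replicate B at -0.05. Opposed arrays were not confined to MR: SR replicate A correlated at -0.29 with S replicate B and -0.26 with S replicate C. It correlated at 0.39 with S replicate A and 0.08 with SR replicate B. The dyes are given in the labels, so the direction of each array was kept. Below 0 in both MR replicates were 6 of the 6 contigs, against 11.2% of all contigs. With the sign of MR replicate A turned, the means of the 6 contigs in MR would lie between 0.55 and 1.20. Passes upward were not counted in that setting. Whether an array was labelled against its dyes was not tested.

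The technical repeat read the same as the first array of MR replicate A. Contig 256 was at -4.64 on the repeat and -4.56 on the first array, contig 254 at -3.90 and -4.05, and contig 6594 at -3.51 on both. Both arrays correlated at r = 0.98 over all probes. If the title of the repeat is right, these 2 arrays hold different pools of water-treated aphids and the same pool of insecticide-treated aphids.

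**Figure D2:**
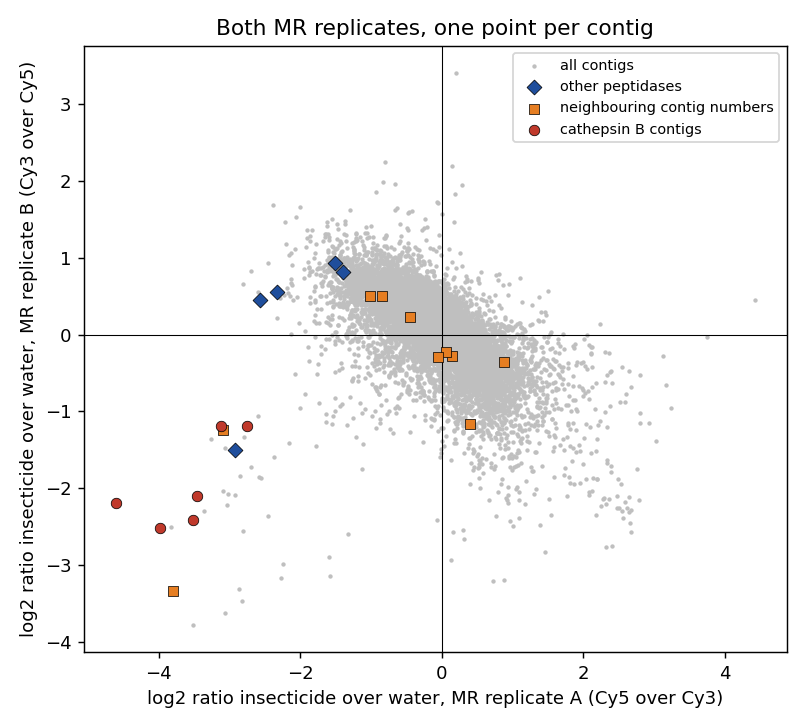
Log2 ratio of insecticide over water in MR replicate A (x axis) against MR replicate B (y axis), with a grey point for each contig and coloured points for the 6 cathepsin B contigs, the 10 contigs with neighbouring numbers and 5 other peptidases. The grey cloud slopes downward, while the cathepsin B contigs lie at the lower left, below 0 on both axes.

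In every one of the 6 contigs, both MR ratios were below all 3 S ratios, as in 5.62% of all contigs, and below both SR ratios, as in 5.97%. Below 0 in both MR replicates and above 0 in all 5 SR and S replicates were 6 of 6 contigs and 0.815% of all contigs. The SR and S side of this pattern was set in part by the choice, since each contig was chosen on its ratio in S, in SR or in both. The difference between genotypes was for this reason not tested.

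A ratio within an array does not show which of both pools moved, so the level of each contig was taken from each channel after normalization between arrays. The levels are log2 intensities of 1 probe set and are compared between pools of aphids, never between contigs. Contig 256 had an insecticide-treated level of 9.75 in MR replicate A, against a water-treated level of 14.35. In MR replicate B the insecticide-treated level was 11.89, against 14.09 in water. In SR it was 10.65 against 9.00 in replicate A and 15.07 against 14.33 in replicate B. The 2 SR replicates thus differed far more from each other than the treatments did within either of them. In S, the insecticide-treated and water-treated levels of contig 256 were 9.29 against 7.67 in replicate A, 14.14 against 11.61 in replicate B and 12.88 against 12.63 in replicate C. S replicate A was low in both treatments, as SR replicate A was.

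**Figure D3:**
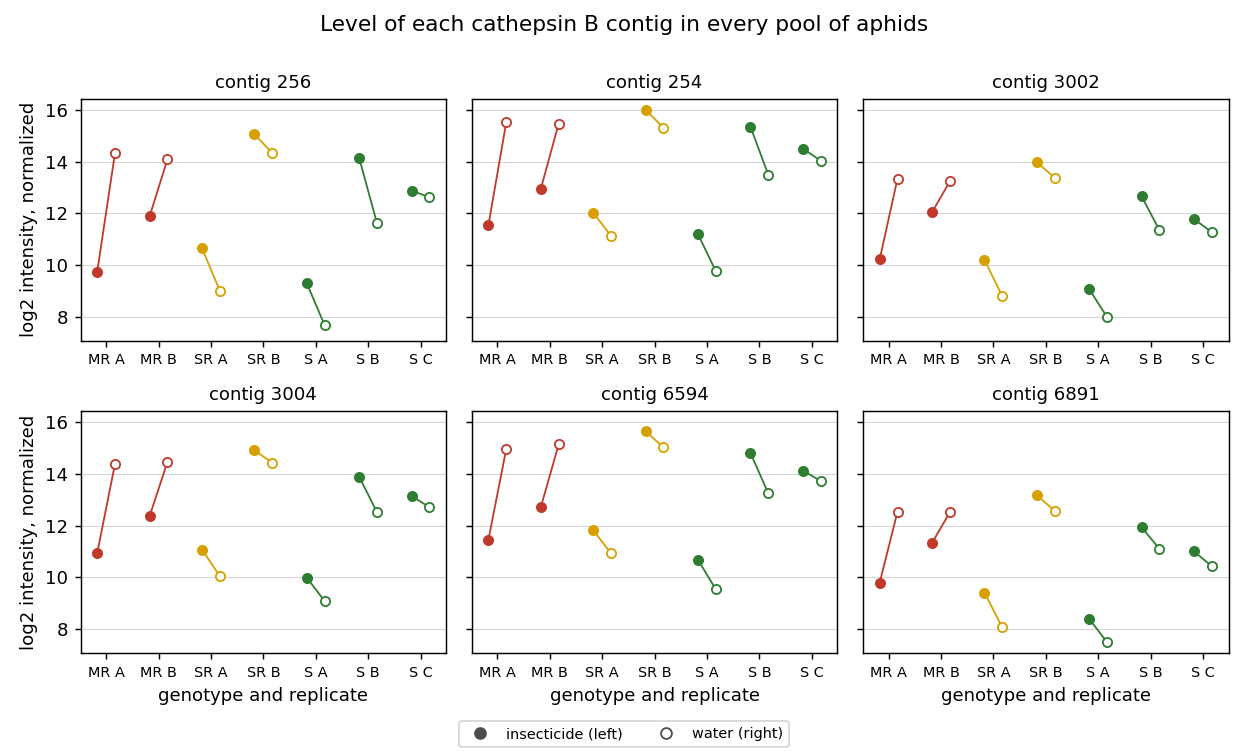
Normalized log2 intensity (y axis) of each cathepsin B contig in all 14 pools of aphids, ordered by genotype and replicate (x axis), with filled points for insecticide, open points for water and a line joining both pools of an array. SR replicate A and S replicate A lie low in both treatments, and both MR water pools lie high.

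The other contigs had the same low pools, SR replicate A and S replicate A in both treatments and MR replicate A after insecticide, though not the same order in full: after water, S replicate B was above S replicate C in contigs 3002 and 6891 and below it in the other 4. In water-treated aphids the median over the 6 contigs was 14.38 in MR replicate A and 14.28 in MR replicate B, 9.52 and 14.39 in SR replicates A and B, and 8.53, 12.07 and 12.67 in S replicates A, B and C. Both MR pools and SR replicate B lay close together, and SR replicate A and S replicate A were low. In insecticide-treated aphids the median was 10.59 and 12.21 in MR, 10.86 and 14.99 in SR, and 9.64, 14.01 and 13.02 in S. After pirimicarb, MR replicate A was thus close to SR replicate A, and the highest pools were SR replicate B and S replicate B.

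Between replicates of 1 genotype, the water-treated level of contig 256 differed by 5.33 on the log2 scale in SR (B over A), by 3.95 (B over A) and 4.96 (C over A) in S, and by -0.26 in MR (B over A). For contig 254 the same differences were 4.18 in SR, 3.74 and 4.29 in S, and -0.06 in MR. For contig 6891, the member with the narrowest range, they were 4.51 in SR, 3.61 and 2.94 in S, and -0.02 in MR. Water-treated MR pools therefore lay within 0.26 of each other in all 6 contigs, while those of SR lay at least 4.11 apart. The insecticide-treated MR pools differed by 1.26 (contig 6594) to 2.14 (contig 256).

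Over the 7 replicates, the water-treated level of contig 256 spanned 6.68 on the log2 scale, a 103-fold range. The other 5 spanned 5.09 (contig 6891, 34.1-fold) to 5.78 (contig 254, 54.9-fold). The SD of the water-treated level over the 7 replicates had a median of 2.21 in the 6 contigs, against 0.31 in all contigs. Only 13 of 10425 contigs (0.125%) had an SD as high as that of contig 6891, the lowest member at 2.15, and 6 of these 13 were the cathepsin B contigs. In insecticide-treated aphids the median SD was 1.82, against 0.28 in all contigs. The low end of these ranges is S replicate A, where contigs 256, 3002 and 6891 had no probe well above background after water, so their lowest level is only a bound.

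The question of whether the genotypes differed in level before treatment was put to the water-treated pools. S and SR levels are part of the ratios that chose the contigs, so these tests are not free of the choice. In both water-treated MR pools, all 6 contigs were above all 3 S pools, as were 12.9% of all contigs, and 1 of the 6 (contig 254) was above both SR pools, as were 13.7% of all contigs. The MR minus S difference was 2.86 to 3.66 over the 10 probes on the log2 scale, with 95% intervals reaching from -0.999 to 8.05, and the adjusted limma p was 0.607 for all of them. No cathepsin B contig was called, against 0.0763% of all contigs. MR minus SR was 2.06 to 2.59, with intervals from -2.42 to 7.45 and an adjusted limma p of 0.927, and 0 contigs of the 6 were called, against 0.0477% of all. SR minus S was 0.65 to 1.07, with intervals from -3.51 to 5.49 and an adjusted limma p of 1.00, and 0 contigs of the array were called, with 535 probes at an unadjusted P under 0.05. Differences of several log2 units would lie inside these intervals. Single replicates moved these values. The median MR minus S difference over the 6 contigs was 3.03, but 1.80 without S replicate A, the replicate whose genotype field reads SR and which held the dim water-treated spots. It reached 3.65 with another replicate left out. The median MR minus SR difference over the 6 contigs was 2.21, but -0.02 without SR replicate A and 4.43 without SR replicate B. SR minus S was 0.80, but 2.95 without SR replicate A, 1.35 without S replicate B, 1.51 without S replicate C, -1.40 without SR replicate B and -0.45 without S replicate A.

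In insecticide-treated aphids, MR minus S was -1.44 to 0.20 over the probes, MR minus SR was -2.15 to -0.70 and SR minus S was 0.27 to 0.94. Single pools moved these values too. The median MR minus S difference was -0.90, but -2.12 without S replicate A, -0.46 without S replicate C and -0.09 without S replicate B or without MR replicate A, and -1.57 without MR replicate B. The median MR minus SR difference was -1.49 but 0.43 without SR replicate B, -3.41 without SR replicate A and -0.79 without MR replicate A. That of SR minus S was 0.71 but 2.65 without SR replicate A, 1.51 without S replicate B, 1.09 without S replicate C, -1.32 without SR replicate B and -0.59 without S replicate A. The intervals of MR minus S reached from -5.54 to 3.39, and the lowest adjusted limma p was 0.731, 0.786 and 0.824 in these 3 comparisons. No cathepsin B contig was called in any of them, against 0.124% of all contigs for MR minus S and 0 for the other two, where 857 and 1174 probes had an unadjusted P under 0.05.

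The 6 contigs moved together over the replicates. Among their 15 pairs, the correlation of the log2 ratios over the 7 replicates lay between r = 0.966 and 0.999, and that of the levels over the 14 pools between 0.958 and 0.998. These points share arrays, and each contig was chosen for a positive ratio in S, in SR or in both, so the correlations are a description. The closest pairs by root mean square difference of the log2 ratios were 3004 and 6594 (0.18), 254 and 6594 (0.24) and 3002 and 6891 (0.24), and the farthest was 256 and 6891 (1.07). Of the closest pairs, only 3002 and 6891 share a best match, and contigs 254 and 256, which share one, were 0.48 apart. Where a contig had 2 probes, they differed by at most 0.23 in contig 254, 0.36 in contig 256, 0.45 in contig 3004 and 0.68 in contig 3002 on any replicate.

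Contigs numbered directly beside a member were looked at by number alone. Of these 10, contigs 255 and 3003 behaved like the members. Contig 255 had log2 ratios of -3.79 and -3.33 in MR, against 1.17 and 0.50 in SR and 0.08, 0.96 and 0.16 in S. Contig 3003 had -3.08 and -1.24 in MR, against 1.17 and 0.54 in SR and 0.79, 1.19 and 0.45 in S, close to contig 3002 on every replicate. Both passed the thresholds downward in MR and neither did upward in SR or S, and neither is described in the lists used here. The other 8 had mean MR ratios between -0.38 (contig 257) and 0.26 (contig 6890), and none of them passed the thresholds in MR.

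Other peptidases of the study's up-regulated lists were compared by the same measure. Legumain, contig 2404, is an asparaginyl endopeptidase that like cathepsin B is a cysteine protease of lysosomes. It had log2 ratios of -2.92 and -1.51 in MR, against 0.86 and 0.73 in SR and 0.84, 1.68 and 0.24 in S, and passed the thresholds downward in MR. The other 4 were on opposite sides of 0 in both MR replicates. The aminopeptidase N contigs 3299 and 5268, whose product takes single residues off the end of peptides and is known from the aphid gut surface, were at -2.33 and -2.56 in MR replicate A and at 0.56 and 0.45 in MR replicate B. The signal peptide peptidase contig 7762, a membrane protease, was at -1.39 in MR replicate A and 0.81 in MR replicate B, and contig 1733, an FtsH-type metalloprotease, was at -1.51 in replicate A and 0.93 in replicate B. In S replicates, these 4 contigs were all above 0, between 0.63 and 1.69. Of the 5 peptidases, 1 passed the thresholds downward in MR (0.582% of all contigs), 4 upward in S (1.89%) and 0 upward in SR (0.172%). These peptidases had been listed by the study for their ratios in S or SR.

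**Figure D4:**
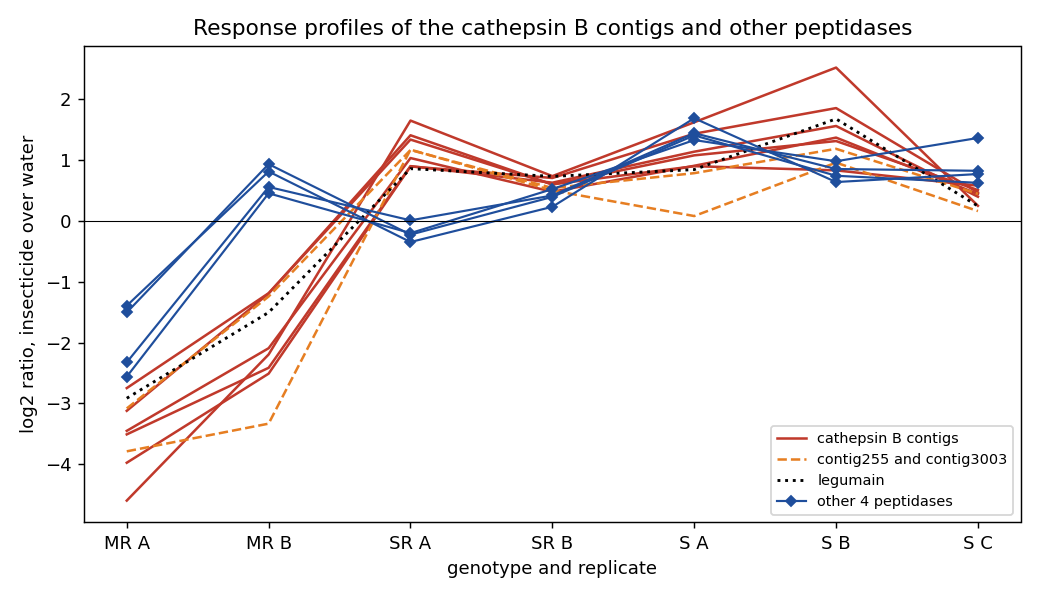
Log2 ratio of insecticide over water (y axis) on each of the 7 replicates (x axis), with a line for each contig that only links its points. Legumain and contigs 255 and 3003 run with the 6 cathepsin B contigs, below 0 in both MR replicates, while the other 4 peptidases lie below 0 in MR replicate A and above 0 in MR replicate B.

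The contigs most like the mean profile of the 6 members were found by Pearson r over the 7 log2 ratios among 10419 others. The 10 highest were contigs 5254, 8225, 3003, 2404, 5043, 8064, 3963, 3556, 3555 and 6286, with r between 0.978 and 0.994. Contig 8225, an unknown protein in the study's list, had log2 ratios of -3.83 and -2.51 in MR, against 0.85 and 0.72 in SR and 1.23, 1.77 and 0.55 in S, with a root mean square difference of 0.29 from the members' mean. Contig 5043 was nearer still at 0.25, with -3.36 and -2.30 in MR, against 0.84 and 0.75 in SR and 0.85, 1.59 and 0.47 in S. Contigs 3556 and 3555 had the same shape at a smaller size, with MR means of -1.39 and -1.33 and differences of 1.03 each from the members' mean. Apart from legumain and contig 8225, none of these 10 is described in the lists used here.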

How the data were processed

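For each of 8 two-colour arrays on 1 slide, the authors deposited scanner output (Agilent Feature Extraction) whose median spot and local background signals are linear intensities before normalization. The authors also deposited limma tables of fold changes and p-values per genotype, which were not used. Of 15744 features, 1116 controls were left out. Per-sample columns of other samples numbered 0.

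Background was corrected with normexp (offset 50), arrays were normalized by loess with controls at weight 0, and outlier spots (0 to 30 per array) were dropped. Each log2 ratio was oriented as insecticide over water by the labelled dyes. The design had foreseen mean signals, but the files hold medians. Levels came from Aquantile normalization between arrays. One limma fit per genotype (lmFit, eBayes, Benjamini-Hochberg over 14628 probes, limma 3.58.1, R 4.3.3) gave calls at a log2 ratio past 1 in size and unadjusted P under 0.05. Levels were compared in 1 fit of 7 replicates at adjusted p under 0.05. A contig value is the mean of its probes. The p-values and intervals use a spread between pools that eBayes draws toward that of all probes. They do not measure the spread of these pools alone. Fits were run on simulated data with independent noise and known shifts, as a check on the size of the estimates. The simulation held no correlation between probes and no opposed replicates, so it does not bear on those features of these data.

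Named were all members, contigs with neighbouring numbers, the other peptidases of the study's up-regulated lists, and the 10 contigs of highest r to the members' mean. Members and lists were chosen with earlier results of these data known. Descriptions and primers come from the study's supplementary tables. Alternatives covered background, normalization, spot filters, fits, MR arrays and each replicate left out. Figures used matplotlib.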

Additional observations from a re-analysis of the deposited data

Results flagged for a closer look

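In the contigs below, every MR replicate lay below 0 and every replicate of the other genotype above 0. The differences between genotypes were not tested, and for most of these contigs the positive sign in S, in SR or in both was set by the choice. The mean log2 ratio in MR minus that in SR was -4.59 for contig 256, -4.05 for contig 254, -3.16 for contig 3002, -3.53 for contig 3004, -3.73 for contig 6594 and -2.94 for contig 6891. MR minus S was -4.86 for contig 256, -4.50 for contig 254, -3.13 for contig 3002, -3.68 for contig 3004, -4.00 for contig 6594 and -2.74 for contig 6891. Of the neighbouring numbers, contig 255 was at -4.40 for MR minus SR and -3.96 for MR minus S, and contig 3003 at -3.02 and -2.97. Legumain (contig 2404) was at -3.01 for MR minus SR and -3.13 for MR minus S.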

How the results depend on the processing

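Except where a sign was turned, the MR ratio of all 6 contigs kept its sign under every other setting tried. This held with each MR replicate left out, and contig values ran from -4.60 to -1.19. With both MR replicates kept, all 6 passed both thresholds downward in each setting, where 48 to 84 contigs of the array did. With a single MR replicate left, only sign and size are given, since limma then takes its spread from the other genotypes. Turning the sign of an MR replicate was chosen after seeing the data, and passes were counted downward only. With B turned, 0 of the 6 contigs passed, against 351 of all contigs. With A turned, all 6 means were above 0, so a downward pass was not possible and upward passes were not counted. With A turned the means became 1.20 (256), 0.73 (254), 0.96 (3002), 0.68 (3004), 0.55 (6594) and 0.78 (6891). Counts in S and SR were less stable, and the contigs of the whole array that passed are in brackets. The 5 in S (198) became 6 with the scanner software's processed signals (259) and 3 with dim spots left out (166). They became 0 without S replicate B (377), 4 without A (154) and 5 without C (238). The 2 in SR (18) became 3 with plain background subtraction (43) and 3 with no background correction (19). They became 1 with median centring (18), 0 in 1 fit of all replicates (14) and 0 with a dye effect term (21). With a single SR replicate left, only size is given, with contig values from 0.48 to 1.65. No member was called for level under any alternative, but single replicates left out moved the median differences, and changed the sign of MR minus SR and SR minus S. With a replicate block, 0 contigs were called in each level comparison, and the median SR minus S difference in water was 1.51 in place of 0.80 and MR minus S after insecticide -0.46 in place of -0.90. The letters were not taken as pairs in the main fits. The study's methods describe the spraying as run in parallel for the genotypes, so a letter may mark a shared round. Deviations of one letter did not all go together. In water-treated levels they correlated at 0.50 (A) and 0.38 (B) between SR and S, but at -0.53 (A) and -0.17 (B) between MR and S. After insecticide all were above 0, at 0.09 to 0.57. With 2 replicates in MR and SR, the deviations of A and B mirror each other, so these correlations cannot settle the pairing. The letters largely follow the dyes. The causes were not tested. Dim water-treated signals in S replicate A limit its ratios.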

Other observations

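Among the 13 contigs whose water-treated level varied at least as much as that of contig 6891, 7 were not cathepsin B contigs. They were picked after their values were seen and 1 of them has a named match in the lists used here. Contigs 255 and 8225 varied with the cathepsin B contigs, with r of 0.991 and 0.999 to their mean water-treated level over the 7 replicates. The other 5 varied as widely but not in the same pools. Contig 4550 had the widest spread of all, with an SD of 3.03 on the log2 scale and r of -0.32, followed by contig 774 at 2.34 with r of -0.46, contig 6605 at 2.33 with r of -0.46, contig 2627 (matched to flightin, a protein of flight muscle) at 2.29 with r of -0.22 and contig 4923 at 2.25 with r of -0.59.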
